A study of Mus musculus with 10 samples.

Results

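The 45 genes described here encode the machinery that docks, primes and fuses insulin granules with the plasma membrane of the beta cell. They were taken by gene symbol from a list of SNARE proteins, SNARE regulators, synaptotagmins, priming factors and granule tethers, and all 45 were found once each among the 27665 genes of the deposited table. The RNA came from whole pancreatic islets, and the mice were male C57BL/6J animals, an inbred laboratory strain, aged 8 to 10 weeks. A western diet group of 5 mice was compared with a standard chow group of 5 mice after 4 weeks on either diet, with 1 library per mouse and no other treatment named. The chow mice were all from cage 3, whereas western diet mice 1, 2, 4 and 5 were from cage 4 and a further western diet mouse 5 was from cage 2. No cage held both diets, so diet and cage cannot be told apart.

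In regulated exocytosis a granule SNARE of the VAMP family zips together with syntaxin and SNAP25 on the plasma membrane, and this pulls the membranes into fusion. Munc18 and Munc13 family proteins prepare the syntaxin for assembly, RIM scaffolds hold granules near calcium channels, and synaptotagmins trigger fusion when calcium enters. NSF and its SNAP cofactors then take the spent complexes apart for reuse. Beta cells use much of the same machinery as nerve terminals, although calcium sensors with a higher affinity, such as Syt7, carry more of the release.

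Total counts ranged from 16532518 to 23902681 per library, and every one of the 45 genes passed the filter on low counts. Insulin and other beta cell markers were abundant, summing to 242900.5 to 277837 CPM (counts scaled to library size) on western diet and 232250 to 268278 on chow. By edgeR 2 of 10 markers were higher on western diet (Iapp and G6pc2) and 2 lower (Slc2a2 and Slc30a8). At an unadjusted p under 0.05, 2 were higher and 4 lower, and DESeq2 called 3 lower. The median log2 fold change of the 10 was -0.11. Alpha, delta and PP cells, Schwann cells and neurons also use exocytosis genes, and 0 of the alpha, delta and PP cell markers were called by edgeR (Irx2 and Rbp4 were higher at an unadjusted p under 0.05). Summed CPM of 5 alpha cell markers was 8696 to 12469 on western diet and 9433 to 14350.1 on chow, that of 4 delta cell markers 2017 to 2317 and 1950.0 to 2402, and that of the PP cell marker Ppy 1312 to 2409 and 962 to 3627. For 8 Schwann cell and neuron markers the sums were 48.8 to 64.5 on western diet and 50.5 to 58.2 on chow. Most of the last sum was Th, and the defining glial markers Sox10, S100b and Gfap were near 0, with means under 1 CPM in both groups. Acinar markers varied widely, from 891 to 6448 CPM on western diet and from 749.9 to 3141 on chow, with 0 of 12 called by edgeR (0 at an unadjusted p under 0.05). Duct (2 of 6 tested, Krt19 and Muc1), endothelial (1 of 7, Kdr), macrophage (1 of 7, C1qa) and fibroblast (1 of 5 tested, Pdgfrb) lists each held called genes, all lower. DESeq2 called 2 endothelial and 2 macrophage markers lower, as many as edgeR at an unadjusted p under 0.05. Plvap, Tie1 and Emcn had positive estimates, and Pecam1, Cdh5 and Esam negative ones. C1qb (log2 fold change 0.11), C1qc (0.16) and Lyz2 went opposite to C1qa (-0.51), while Cd14, Adgre1 and Csf1r were negative. The endothelial median was -0.05 and the macrophage median -0.03. The endothelial sum was 276 to 330.0 on western diet and 321.7 to 356 on chow, the macrophage sum 59.6 to 92.0 and 75.7 to 94.3, and the fibroblast sum 22.5 to 48.3 and 25.4 to 138. The duct sum, 285 to 303 and 283 to 309, was mostly Krt7 (means of 235 and 225 CPM), while Krt19 averaged 0.571 CPM on western diet and 3.58 on chow, 4 of the 6 tested were lower at an unadjusted p under 0.05, and the median log2 fold change was -0.47. Their part in the results below was not tested. In these whole islets, fewer cells of a type and less RNA per cell cannot be told apart.

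On western diet 4 of the 45 genes rose and 5 fell, and 36 were not called (edgeR, p adjusted over all 15104 genes tested, threshold 0.05). Called genes made up 20.0% of the members and 10.8% of all genes tested. The share of all genes was nearer to the members' in DESeq2, with 15.2% against 9 of 45 members, and among genes averaging at least 5 CPM, with 15.3% against 8 of 41. The DESeq2 share was taken over the 13169 genes that had an adjusted p there, and Cplx1, counted among the 45, had none. Members that rose were 8.89% against 5.27% of all genes, and members that fell were 11.1% against 5.5%. For 6 of the 45, all called, every library of one diet lay on the same side of every library of the other, which was so for 8.85% of all genes tested. The median log2 fold change of western diet over chow was -0.05 for the members and 0.01 for all genes tested. The genes that rose were Rims3, Snap23, Vamp4 and Syt11, and those that fell were Pclo, Rims2, Syt1, Syt14 and Stxbp5l. In the authors' deposited table the same 9 members, and no others, had an adjusted p under 0.05.

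**Figure D1:**
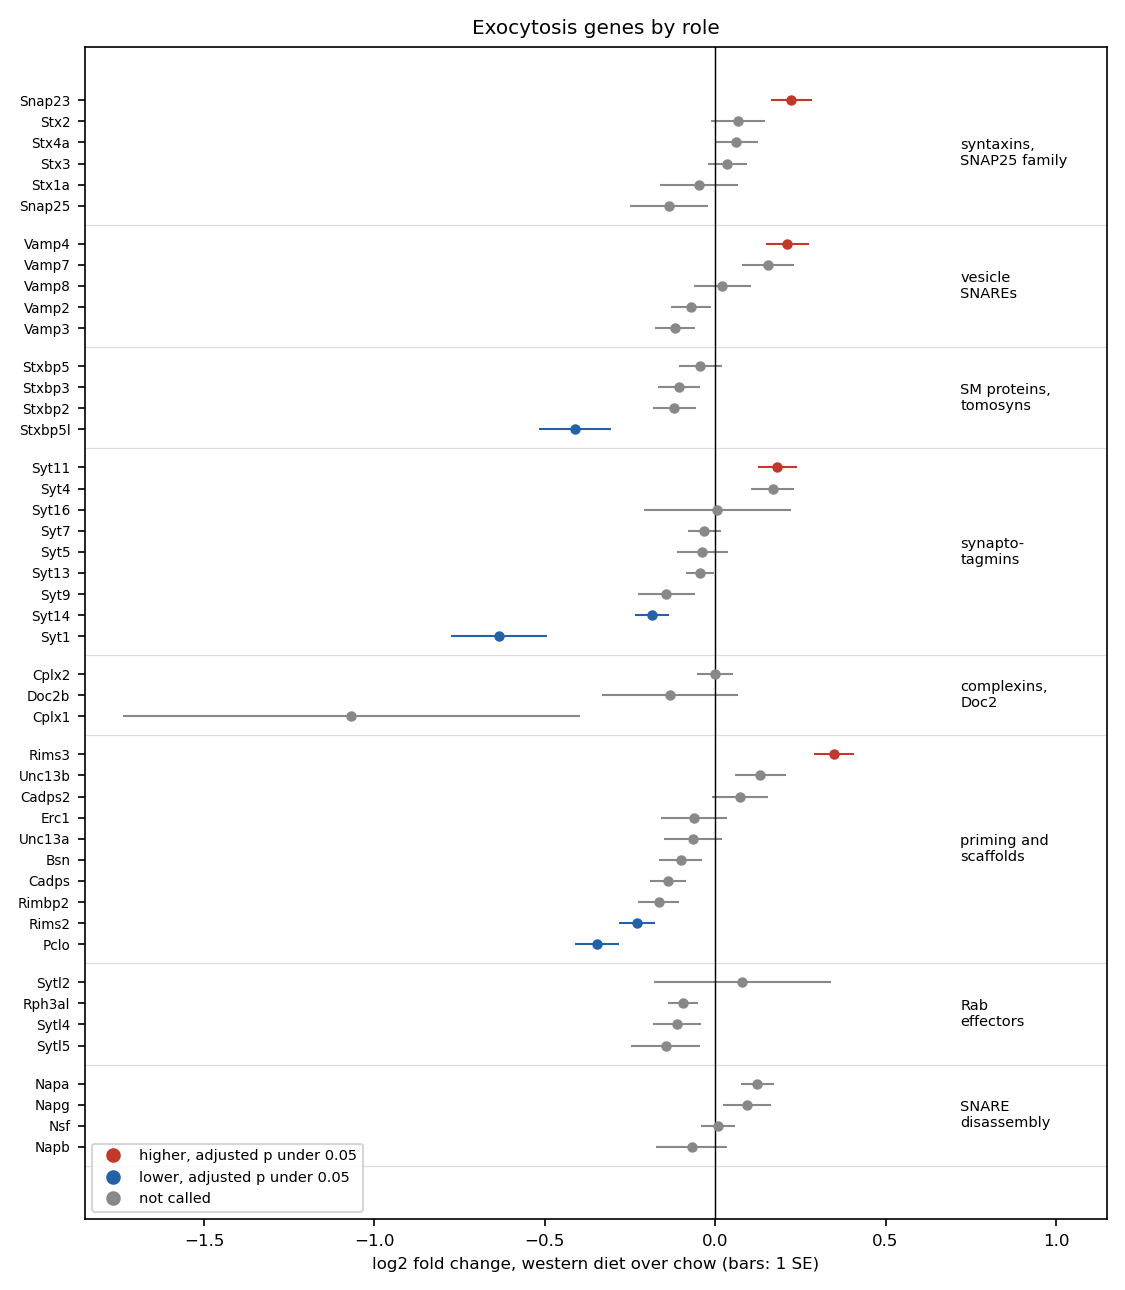
Log2 fold change of western diet over chow for each of the 45 exocytosis genes, grouped by role and ordered within each role. Points are edgeR estimates with bars of 1 SE. Red points rose, blue points fell and grey points were not called. Rims3 has the largest increase and, among called genes, Syt1 the largest decrease.

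Immediate early and heat shock genes, which are known to respond to handling of tissue, separated the libraries in the same way as diet. Of 15 such genes 14 fell and 0 rose (edgeR, 14 and 0 also at an unadjusted p under 0.05), and their summed CPM was 9988 to 12278 on western diet and 17506 to 21434 on chow. With the mean of that list as a covariate 0 members were called, and 3 had an unadjusted p under 0.05, and 0 of all 15104 genes were called, with 426 at an unadjusted p under 0.05. The summed CPM of the list did not overlap between the diets, so diet estimates in that fit are poorly determined. They ranged from -1.17 for Syt16 to 1.18 for Cplx1 among the members. Of the called members, Stxbp5l, Syt1 and Syt14 had estimates above 0 (edgeR adjusted p = 0.999 each). The level of this list and the diet cannot be told apart in these libraries.

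The calls differed in how much they rested on single mice. Rims3, Pclo, Rims2 and Syt1 were called in all 10 fits that left out 1 mouse. Syt14 lost its call without western diet cage 4 mouse 1 (adjusted p = 0.0592), western diet cage 4 mouse 4 (0.0569) or chow mouse 2 (0.0511). Stxbp5l lost its call without western diet cage 4 mouse 4 (0.0508) or chow mouse 3 (0.0514). Snap23 lost it in 6 of the 10 fits, when the mouse left out was western diet cage 4 mouse 1 (0.0634), 4 (0.0573) or 5 (0.0541) or chow mouse 1 (0.0694), 3 (0.0641) or 4 (0.0512). Vamp4 lost it in 7, when it was western diet cage 4 mouse 1 (0.103), 2 (0.0777), 4 (0.0596) or 5 (0.073) or chow mouse 1 (0.117), 3 (0.0842) or 5 (0.0526). Syt11 lost it in 9, in every fit but the one without chow mouse 4, with adjusted p of 0.0543 to 0.139, and also under RLE or upper quartile factors, under another filter and in limma-voom (adjusted p of 0.0512 to 0.0705). On the first principal component of all genes (24.1% of the variance), chow mouse 1 lay farthest out and western diet cage 2 mouse 5 nearest to chow. With both left out, 7 members were called, and Stxbp5l (0.064) and Syt11 (0.118) were not. In the fits without a single mouse, 1 to 5 members rose and 3 to 5 fell, with the fewest calls, 4, when western diet cage 4 mouse 4 was left out, and 5 when western diet cage 4 mouse 1 or chow mouse 3 was.

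The members spanned a wide range of abundance. Deposited FPKM, which are counts divided by gene length and library total, allow levels of different genes to be set side by side. By mean FPKM over the 10 libraries Syt13 was the most abundant member at 388, followed by Cplx2 at 131, Sytl4 at 69.9, Napa at 60.6 and Vamp2 at 55.8. Sytl2 at 0.150, Syt16 at 0.436, Cplx1 at 0.510 and Syt1 at 0.901 were the lowest. These levels depend on the gene length that the table gives.

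**Figure D2:**
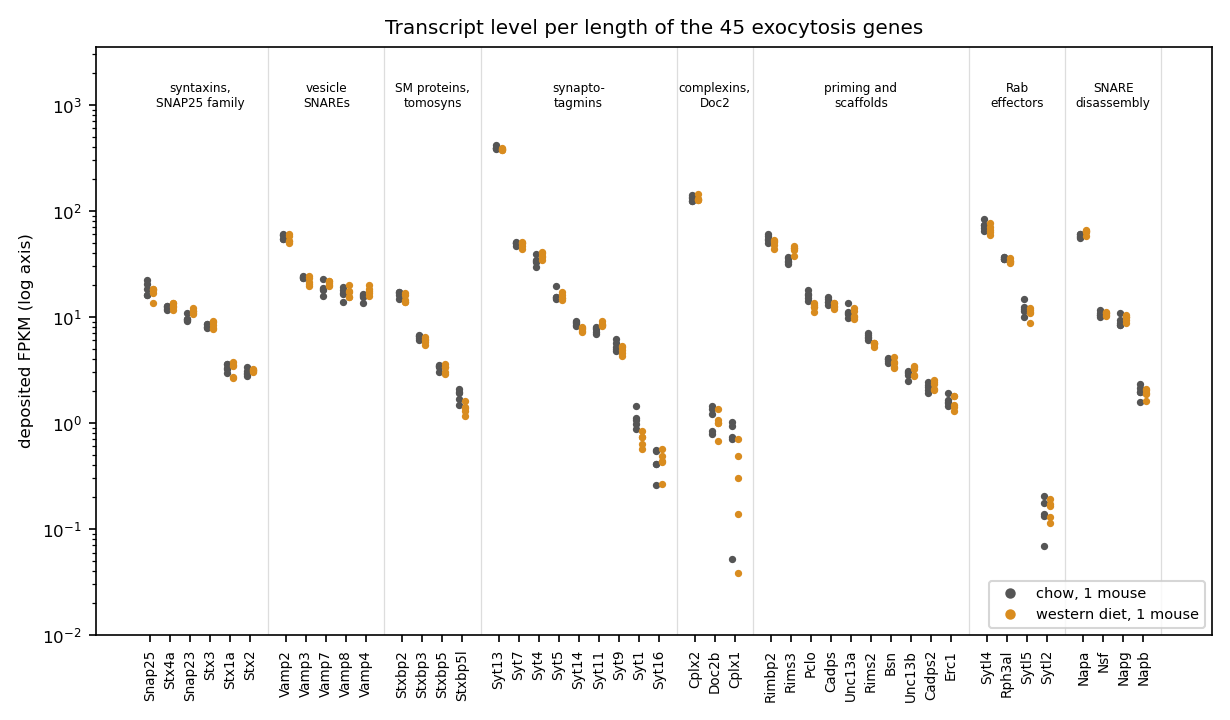
Deposited FPKM of each member on a log axis, grouped by role and ordered by mean level. Grey points are the 5 chow mice and orange points the 5 western diet mice. Syt13 stands above all other members, and the groups overlap for most genes.

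Among the plasma membrane SNAREs Snap23 rose, while the 4 syntaxins and Snap25 were not called. In each list of library values below, western diet libraries come first, in the order cage 4 mice 1, 2, 4 and 5 and cage 2 mouse 5, followed by chow mice 1 to 5. Snap23 (ENSMUSG00000027287, GRCm38 chromosome 2, 120567671 to 120601255), the broadly expressed relative of SNAP25, had 52.2, 46.2, 49.1, 49.6 and 45.2 CPM on western diet and 39.1, 46.4, 40.2, 40.7 and 41.0 on chow. Chow mouse 2 lay among the western diet libraries and the other chow libraries lay below all of them. The log2 fold change was 0.22 ± 0.06 (SE, edgeR adjusted p = 0.0237). Snap25, the neuronal and endocrine form, had 91.1, 114, 121, 126 and 125 CPM on western diet and 153, 108, 139, 109.7 and 124 on chow. The groups overlapped, western diet cage 4 mouse 1 was the lowest library and chow mouse 1 the highest, and the log2 fold change was -0.14 ± 0.11 (SE, adjusted p = 0.488). The ratio of Snap25 to Snap23 FPKM averaged 1.51 ± 0.243 over the western diet mice and 1.95 ± 0.392 over the chow mice (SD), and the ranges overlapped. Stx1a, the syntaxin best known for insulin granule fusion, was at 3.26 FPKM, below Stx4a and Stx3 and just above Stx2. It had 9.91, 7.22, 9.13, 7.21 and 9.29 CPM on western diet and 9.66, 8.71, 8.52, 7.87 and 9.53 on chow. The chow range lay inside the western diet range (log2 fold change -0.05 ± 0.12 SE, adjusted p = 0.838). Stx4a, which takes part in both phases of insulin release, was higher at 12.4 FPKM, and Stx3 and Stx2 were at 8.31 and 3.08. Their log2 fold changes were 0.06 ± 0.06, 0.04 ± 0.06 and 0.07 ± 0.08 (SE), none called.

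Of the vesicle SNAREs Vamp4 rose and the other 4 were not called. Vamp4 (ENSMUSG00000026696, GRCm38 chromosome 1, 162570515 to 162599084), a SNARE of the trans-Golgi network, endosomes and immature granules, had 90.8, 83.1, 77.7, 81.4 and 72.3 CPM on western diet and 61.7, 72.5, 69.6, 74.4 and 71.7 on chow. Western diet cage 2 mouse 5 lay below chow mice 2 and 4, and the remaining western diet libraries lay above all chow libraries. The log2 fold change was 0.21 ± 0.06 (SE, adjusted p = 0.0387). Vamp2, the main SNARE of insulin granules, was the most abundant of the 5 by FPKM and had 190.1, 196, 198, 223 and 231 CPM on western diet and 228, 204, 224, 206 and 229 on chow. Its groups overlapped (log2 fold change -0.07 ± 0.06 SE, adjusted p = 0.465). Vamp3, which can stand in for Vamp2, had a log2 fold change of -0.12 ± 0.06 (SE, adjusted p = 0.201), and Vamp8, linked to newcomer granules, 0.02 ± 0.08 (adjusted p = 0.907). Vamp7, a SNARE of lysosomes and late endosomes, was at 0.15 ± 0.08 (adjusted p = 0.198), and was called higher without chow mouse 2 (adjusted p = 0.0255).

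Of the Munc18 proteins and tomosyns, which bind syntaxin, 1 of 4 fell and 0 rose (edgeR, 1 and 0 also at an unadjusted p under 0.05, and in DESeq2 and limma-voom). Stxbp5l (ENSMUSG00000022829, GRCm38 chromosome 16, 37114942 to 37384962) encodes a tomosyn, a protein that occupies SNAREs and restrains fusion. It had 11.8, 11.9, 9.93, 13.7 and 11.1 CPM on western diet and 16.48, 16.7, 17.6, 12.6 and 14.2 on chow. Western diet cage 4 mouse 5 lay above chow mouse 4, and no other pair overlapped. The log2 fold change was -0.41 ± 0.11 (SE, adjusted p = 0.0189). Its paralog Stxbp5 was more abundant per length, at 3.31 against 1.597 FPKM, and was not called (-0.04 ± 0.06 SE, adjusted p = 0.708). The ratio of Stxbp5 to Stxbp5l FPKM was 2.10 to 2.60 on western diet and 1.66 to 2.33 on chow. Stxbp2, a Munc18 form typical of secretory epithelia and blood cells and the most abundant member of this group at 15.7 FPKM, had 66.2, 57.6, 57.9, 61.0 and 69.7 CPM on western diet and 71.8, 66.7, 71.3, 69.7 and 60.7 on chow. It was not called (-0.12 ± 0.06 SE, adjusted p = 0.228), nor was Stxbp3, the partner of syntaxin 4 (-0.11 ± 0.06 SE, adjusted p = 0.276).

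Synaptotagmins moved both ways, with Syt11 higher and Syt1 and Syt14 lower among 9. Syt1 (ENSMUSG00000035864, GRCm38 chromosome 10, 108497650 to 109010982), the fast calcium sensor of neurons, was scarce in these islets and had 6.20, 6.996, 4.78, 5.33 and 6.11 CPM on western diet and 12.04, 7.31, 8.18, 9.24 and 8.98 on chow. Every western diet library lay below every chow library, the closest pair being 6.996 and 7.31 CPM. The log2 fold change was -0.63 ± 0.14 (SE, adjusted p = 0.00876). Syt14 (ENSMUSG00000016200, GRCm38 chromosome 1, 192891233 to 193035775), a family member that does not bind calcium, had 87.1, 96.2, 86.0, 92.2 and 93.1 CPM on western diet and 106, 109.7, 100.1, 97.0 and 104 on chow. The groups did not overlap, with 96.2 and 96.95 CPM as the closest pair, and the log2 fold change was -0.19 ± 0.05 (SE, adjusted p = 0.0237). Syt11 (ENSMUSG00000068923, GRCm38 chromosome 3, 88744700 to 88775164), another form without calcium binding, had 44.6, 47.1, 42.6, 43.8 and 43.8 CPM on western diet and 37.3, 39.6, 35.8, 42.1 and 40.7 on chow. Here too the groups did not overlap, by 42.6 against 42.1 CPM (log2 fold change 0.18 ± 0.06 SE, adjusted p = 0.0469).

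The abundant synaptotagmins were not called. Syt13, which lacks calcium binding and made up 75.5% of the summed synaptotagmin FPKM on western diet and 76.4% on chow, had 1476, 1415, 1409, 1466 and 1431 CPM on western diet and 1482, 1565, 1431, 1473 and 1471 on chow. Its log2 fold change was -0.04 ± 0.04 (SE, adjusted p = 0.536), the smallest SE of the 45. Syt7, the high-affinity calcium sensor of insulin granules, had 320.2, 340.1, 363, 363 and 367 CPM on western diet and 365, 361, 363, 335 and 368 on chow. Those groups overlapped, with 1 chow library and 2 western diet libraries below the rest (log2 fold change -0.03 ± 0.05 SE, adjusted p = 0.732). Syt4, which tunes the calcium sensitivity of maturing beta cells, averaged 149 ± 9.60 CPM in the western diet group and 132 ± 12.5 in the chow group (SD). It was not called (log2 fold change 0.17 ± 0.06 SE, adjusted p = 0.0928) but was called higher without western diet cage 2 mouse 5 (0.0494) or chow mouse 2 (0.0239). Syt9 and Syt5, granule calcium sensors, were at -0.14 ± 0.08 and -0.04 ± 0.07 on the log2 scale (SE). Syt16 stayed between 2.37 and 5.21 CPM in all libraries, with a wide SE (0.0065 ± 0.22 on the log2 scale).

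Complexins and Doc2b, which act at the last step before fusion, had 0 of 3 called by edgeR, DESeq2 or limma-voom (0 at an unadjusted p under 0.05). DESeq2 gave no adjusted p for Cplx1. Cplx2, the dominant complexin of these islets, had 640.3, 639.9, 622, 628 and 704 CPM on western diet and 703, 614, 644, 604 and 669.8 on chow. Its log2 fold change was -0.00069 ± 0.05 (SE, adjusted p = 0.996), the estimate nearest to 0 of all 45. Cplx1 was far lower, between 0.0837 and 1.54 CPM on western diet and 0.114 and 2.22 on chow. Its fitted log2 fold change of -1.07 ± 0.67 (SE, adjusted p = 0.34) was larger than that of any called member and rested on few reads. Doc2b, a soluble calcium sensor, had 2.96 to 5.92 CPM on western diet and 3.44 to 6.26 on chow (-0.13 ± 0.20 SE, adjusted p = 0.719).

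Among 10 priming factors and active zone scaffolds Rims3 rose and Pclo and Rims2 fell, and Rims3 and Pclo had the smallest adjusted p-values of the 45 members. Rims3 (ENSMUSG00000032890, GRCm38 chromosome 4, 120854816 to 120896579), a short member of the RIM scaffold family, had 359, 355, 371, 347 and 297 CPM on western diet and 266, 283, 262, 293 and 254 on chow. Every western diet library lay above every chow library, although cage 2 mouse 5 exceeded chow mouse 4 by little. Means were 346 ± 28.6 and 272 ± 16.0 CPM (SD), and the fold change was 1.27 (log2 0.35 ± 0.06 SE, adjusted p = 0.00163). Rims2 (ENSMUSG00000037386, GRCm38 chromosome 15, 39198261 to 39684372), the full-length RIM that binds Rab3 and calcium channels and positions insulin granules, went the other way. It had 53.8, 58.9, 59.6, 58.1 and 59.1 CPM on western diet and 70.4, 66.6, 65.1, 63.5 and 73.8 on chow. The groups were apart by 59.7 against 63.5 CPM at the closest pair, and the log2 fold change was -0.23 ± 0.05 (SE, adjusted p = 0.0108). Pclo (ENSMUSG00000061601, GRCm38 chromosome 5, 14514918 to 14863459) encodes Piccolo, a giant scaffold that binds RIM and takes part in cAMP-induced insulin secretion. It had 249, 279, 279.9, 294 and 304 CPM on western diet and 403, 363, 366, 318 and 339.5 on chow. The closest pair was 304 and 318 CPM, and the log2 fold change was -0.35 ± 0.06 (SE, adjusted p = 0.00266).

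**Figure D3:**
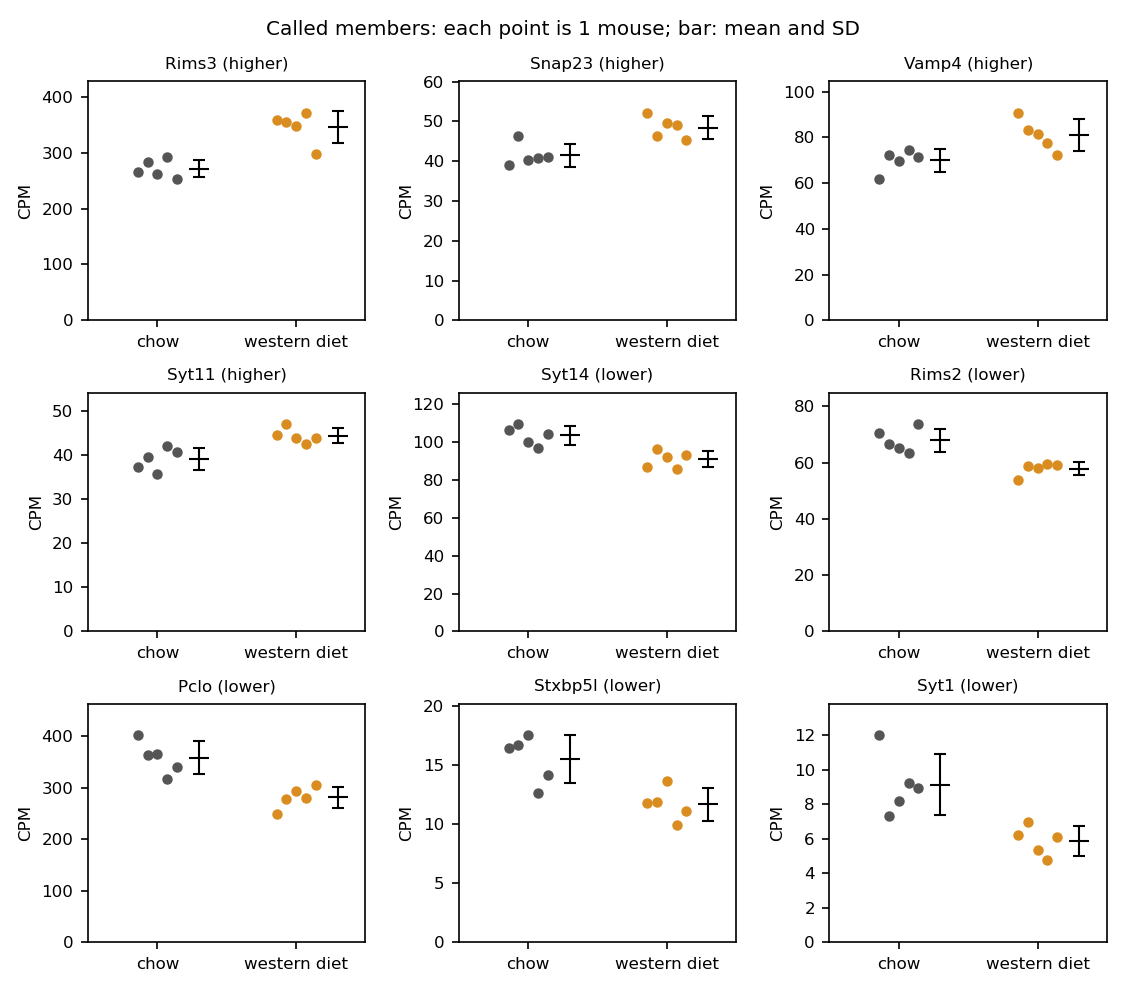
CPM of the 9 called members in each library, chow in grey and western diet in orange, with the group mean and SD beside the points. Axes start at 0. Rims3, Syt11, Syt14, Rims2, Pclo and Syt1 show no overlap between the diets, and Snap23, Vamp4 and Stxbp5l overlap by 1 or 2 libraries.

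Other priming factors were not called. Rimbp2, which couples RIM to calcium channels and was the most abundant of this group at 52.1 FPKM, had 400.3, 344, 375, 411 and 419 CPM on western diet and 460.2, 433, 478, 419 and 398 on chow. It overlapped between the diets (log2 fold change -0.17 ± 0.06 SE, adjusted p = 0.086). Cadps, which primes dense-core granules, was at -0.14 ± 0.05 (SE, adjusted p = 0.104), and its paralog Cadps2 at 0.07 ± 0.08 (adjusted p = 0.611). Unc13a and Unc13b, Munc13 family priming proteins, were at -0.07 ± 0.08 and 0.13 ± 0.07 (SE, adjusted p = 0.671 and 0.27). The ratio of Unc13a to Unc13b FPKM was 3.09 to 3.605 on western diet and 3.61 to 4.41 on chow, without overlap by a narrow margin. It was the only one of 12 paralog ratios to separate, and 8.85% of all single genes tested did so by CPM. An exonic stretch of 495 bases of Unc13a is also exonic in Colgalt1 on the other strand, a gene of 10.6 FPKM, and no source used here says whether counting used strand, so Unc13a counts are uncertain to that extent. Bsn, a scaffold related to Piccolo, was at -0.10 ± 0.06 (SE, adjusted p = 0.324), and Erc1, which binds RIM, at -0.06 ± 0.10 (adjusted p = 0.732).

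Stretches just upstream of the RefSeq transcription start (GRCm38.p6) are shown for 2 members that rose, Rims3 and Snap23, and 2 that fell, Pclo and Syt14, to set the sequence beside the opposite changes. Each holds the 250 bases before the start, in the direction of the gene, and none overlaps an annotated exon of GENCODE M21. Capitals mark exact matches, on either strand, to 4 short motifs, which may overlap one another. The GC box was searched as GGGCGG. The CAAT box was searched with the letters CCAAT. For the cAMP response element the core TGACG was used. The E-box searched for was CACGTG.

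Rims3, chr4:120854549-120854798, plus strand: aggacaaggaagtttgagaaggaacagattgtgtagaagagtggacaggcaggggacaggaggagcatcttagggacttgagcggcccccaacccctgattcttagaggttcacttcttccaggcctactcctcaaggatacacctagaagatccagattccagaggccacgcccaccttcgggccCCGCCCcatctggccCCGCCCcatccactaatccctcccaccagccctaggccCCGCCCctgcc
Snap23, chr2:120567421-120567670, plus strand: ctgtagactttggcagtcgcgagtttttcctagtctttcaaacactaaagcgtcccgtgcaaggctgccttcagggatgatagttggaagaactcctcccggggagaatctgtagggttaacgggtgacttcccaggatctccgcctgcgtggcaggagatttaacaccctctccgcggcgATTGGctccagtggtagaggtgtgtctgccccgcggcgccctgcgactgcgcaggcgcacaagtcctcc
Pclo, chr5:14514668-14514917, plus strand: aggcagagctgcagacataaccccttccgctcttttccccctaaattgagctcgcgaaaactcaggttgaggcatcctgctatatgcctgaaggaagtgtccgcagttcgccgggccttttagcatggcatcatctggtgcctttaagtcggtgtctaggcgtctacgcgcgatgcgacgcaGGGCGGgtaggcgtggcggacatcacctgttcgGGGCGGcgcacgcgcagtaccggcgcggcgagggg
Syt14, chr1:193035776-193036025, minus strand: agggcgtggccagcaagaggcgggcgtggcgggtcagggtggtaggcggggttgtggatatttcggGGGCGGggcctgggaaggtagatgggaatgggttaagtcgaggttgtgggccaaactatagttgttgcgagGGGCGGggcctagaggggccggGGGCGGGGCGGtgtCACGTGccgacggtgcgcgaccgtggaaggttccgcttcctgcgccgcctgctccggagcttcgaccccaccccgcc

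GC boxes occurred 3 times upstream of Rims3, which rose, and 2 and 4 times upstream of Pclo and Syt14, which fell. Snap23 held 1 CAAT box and no GC box, and Syt14 also held 1 E-box. RefSeq promoters were found for 33 of the 45 members, with 36 starts. A GC box lay within 250 bases upstream of 21 of the 36, or 58.3%, against 32.7% of the 32851 promoters in the table. The shares were 25% against 33.8% for a CAAT box, 22.2% against 17.8% for the response element core and 19.4% against 6.02% for an E-box. Member stretches held a median of 15.5 CG pairs and those of all promoters 6.0. The GC box, the response element core and the E-box each contain CG, and the shares were not adjusted for this. The 32851 promoters were not limited to genes tested here. A GC box was present at 3 of 5 starts of members that rose and 4 of 5 of members that fell. These are matches of letters and not measured binding.

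Rab effectors, which tether granules to the membrane, had 0 of 4 called by edgeR, DESeq2 or limma-voom (1 lower at an unadjusted p under 0.05). Sytl4 encodes granuphilin, which docks insulin granules through Rab27a, and had 340.4, 359.6, 306, 327 and 390.2 CPM on western diet and 379.7, 425, 373, 351 and 334 on chow. The groups overlapped (log2 fold change -0.11 ± 0.07 SE, adjusted p = 0.318). Rph3al, which encodes Noc2, a Rab effector needed for normal insulin secretion, was at -0.09 ± 0.04 (SE, adjusted p = 0.186), and Sytl5 at -0.15 ± 0.10 (adjusted p = 0.378). Sytl2 was at the low end, with 0.972 to 2.88 CPM over all libraries.

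The recycling machinery had 0 of 4 called by the same tools (1 higher at an unadjusted p under 0.05). Napa, which encodes the main SNAP cofactor of NSF, had 221, 237, 246, 247 and 248 CPM on western diet and 229.6, 217, 229.5, 213 and 211 on chow. Western diet cage 4 mouse 1 lay within the chow range and the others above it, for a log2 fold change of 0.12 ± 0.05 (SE, adjusted p = 0.108). Nsf itself was at 0.0076 ± 0.05 (SE, adjusted p = 0.942), Napg at 0.09 ± 0.07 (adjusted p = 0.415) and the neuronal form Napb at -0.07 ± 0.10 (adjusted p = 0.72).

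Neighbouring parts of the pathway, from 4 lists of other genes, gave different counts, and differences between lists were not tested. For comparison, 5.27% of all 15104 genes tested rose and 5.5% fell (edgeR). Among 26 tested genes of the same families as the members, 0 rose and 4 fell (edgeR, 2 and 9 at an unadjusted p under 0.05; DESeq2 called 1 higher). The 4 were Sytl3 (log2 fold change -0.78), a Rab27 effector at under 4 CPM, the calcium sensor gene Syt2 (-0.43), the active zone scaffold gene Erc2 (-0.30) and Stxbp4 (-0.23), which encodes a syntaxin 4 binding protein. Of 17 granule Rab genes and partners 3 rose and 3 fell. Rab3a (0.22), the granule Rab that RIM binds, Madd (0.24), its exchange factor, and Rabac1 (0.19) rose. Rab37 (-0.38), Exph5 (-0.34), a Rab27 effector, and Rab27b (-1.02), at about 1 to 3 CPM, fell. Of 12 exocyst subunits and Ral GTPases 0 were called by edgeR, DESeq2 or limma-voom (2 lower at an unadjusted p under 0.05). SNAREs and Sec1 proteins of the ER, Golgi and endosomes had 7 of 25 higher and 0 lower (edgeR, 9 and 0 at an unadjusted p under 0.05, and 7 and 0 in DESeq2 and limma-voom), with a median log2 fold change of 0.11. The 6 with the smallest p-values were Gosr2 (0.28), Stx5a (0.40), Scfd2 (0.30), Sec22b (0.21), Ykt6 (0.16) and Bet1l (0.24), most of which serve transport between ER and Golgi.

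The members that fell were all long genes. Their genomic spans were 144.5 to 513 kb, and those of the 4 members that rose were 28.6 to 41.8 kb. Of 17 members that span at least 100 kb, a boundary chosen after seeing the values, 5 fell and 0 rose, and of 28 shorter members 0 fell and 4 rose. All genes tested leaned the same way: 11.7% of the 1999 genes of at least 100 kb fell and 2.15% rose, with a median log2 fold change of -0.09, against 4.56% and 5.75% of the 13105 shorter genes, with a median of 0.02. Across genes, which are not independent replicates, Spearman's rho between span and log2 fold change was -0.156 over all 15104 and -0.395 over the 45 members. Of all 1999 genes of at least 100 kb, 30.4% had positive estimates. Of the 17 long members 12 had negative estimates. The other 5, Cadps2 (the longest at 577 kb), Unc13b, Syt16, Nsf and Sytl2, had positive ones and were not called. The part of span in the changes of the 5 that fell was not tested.

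**Figure D4:**
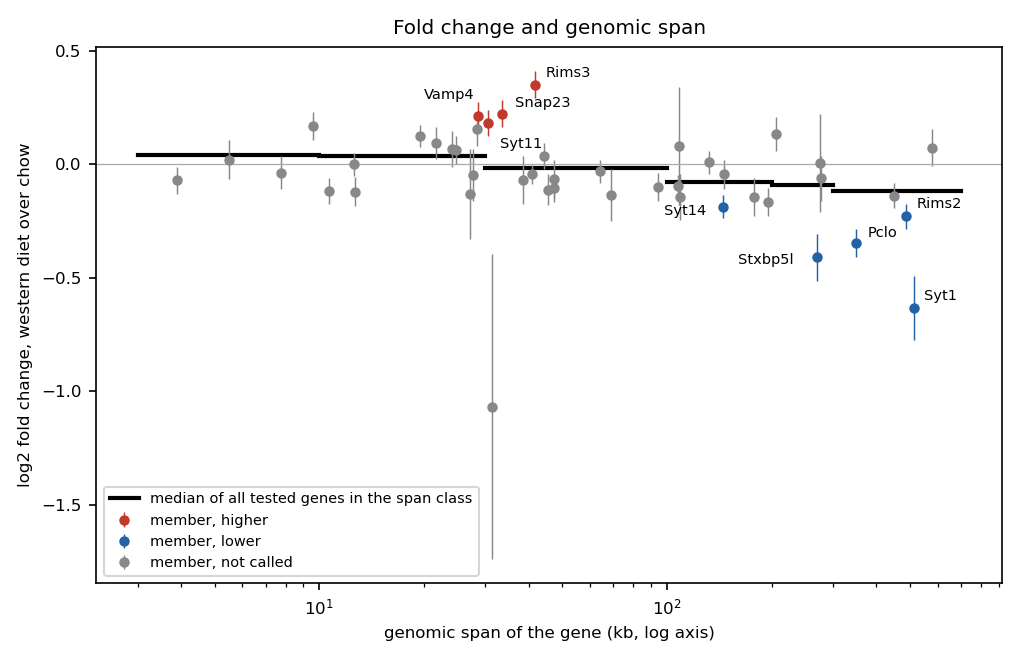
Log2 fold change of western diet over chow against genomic span, on a log axis, for the 45 members with bars of 1 SE. Black lines are medians of all tested genes in 6 span classes, which go from 0.04 in the shortest to -0.12 in the longest. The 4 members that rose span 28.6 to 41.8 kb and the 5 that fell at least 144.5 kb.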

How the data were processed

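The deposited table holds 27665 genes in 10 libraries, with the authors' whole-number read counts, their FPKM, and their own comparison of the diets as log2 fold changes and p-values, per the file headers. STAR 2.5, HTSeq 2 and DESeq2 appear in the submitters' processing notes along with mm10 and GRCm38, and no roles are stated there. From the values, the deposited FPKM are counts divided by the table's gene length and by a library total. Per the labels' protocols the library kit was NEBNext Ultra. Whether counting used strand was not stated. The authors' 10 columns of normalized values were not used here.

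Genes that filterByExpr kept at a minimum count of 10 (15104) were fitted in edgeR 4.0.16 (R 4.3.3) by robust quasi-likelihood, with TMM factors and no covariate, and p-values were adjusted by Benjamini-Hochberg. Called genes had an adjusted p under 0.05. CPM use TMM-scaled library sizes. The SE divides the size of the log2 fold change by the root of F. Libraries held 16532518 to 23902681 counts, and spreads are between mice. The test was checked on simulated counts.

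The fit was repeated with RLE or upper quartile factors, without the filter, for genes averaging 5 CPM or more, in DESeq2 1.42.0 and limma-voom (limma 3.58.1), with the acinar or immediate early list as a covariate, with a block on mouse number, and without each mouse in turn. Leaving out western diet cage 2 mouse 5 and chow mouse 1 together was added after seeing the data.

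The members, the gene lists and the rule for naming genes were chosen with earlier results of these data known. By that rule, values in every library are given for each called member, the most abundant member of each role, and Stx1a, Snap25, Vamp2 and Syt7, and up to 6 called genes with the smallest p-values are named from each list of other pathway genes. Called markers of cell types were named after their values were seen. Gene coordinates are the table's. Promoters are RefSeq's for GRCm38.p6.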

Additional observations from a re-analysis of the deposited data

Results flagged for a closer look

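In 5 of 90 groups of 5 libraries (45 members in each diet) 1 library stood apart from the other 4, with a gap to its neighbour above 0.71 of the group's range; about 1 group in 20 would do so with no true outlier. Chow mouse 2 was high for Snap23, at 46.4 CPM against 41.0 for the next library, and for Syt5, at 46.1 against 37.0. Chow mouse 4 was low for Syt7, at 335 CPM against 361. Western diet cage 2 mouse 5 was high for Cplx2, at 704 CPM against 640.3. Western diet cage 4 mouse 1 was low for Rims2, at 53.8 CPM against 58.1, and Rims2 was called with and without that mouse.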

How the results depend on the processing

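RLE or upper quartile factors, no filter, a mean of at least 5 CPM and limma-voom each called 8 members in place of 9, and DESeq2 and the acinar covariate 9. Of the 36 members not called, 34 were called in none of 20 alternatives. The share of all tested genes called was 5.68% with no filter, 5.57% with the replicate block, 15.3% at 5 CPM, 15.2% in DESeq2 and 6.17% to 11.8% with 1 mouse left out. Leaving out 1 mouse gave 4 to 9 called members (1 to 5 higher, 3 to 5 lower), 0 to 1 higher and 1 to 3 lower among other genes of the same families, 2 to 3 higher and 2 to 3 lower among granule Rabs, 0 to 1 lower among exocyst subunits, and 3 to 8 higher among SNAREs of the ER, Golgi and endosomes. Exocyst subunits called lower were 1 with upper quartile factors, 2 at 5 CPM and 1 with western diet cage 2 mouse 5 and chow mouse 1 both left out, and other family genes called higher were 1 with no filter and 1 in DESeq2. Leaving out that pair called 7 members, and 2 other family genes lower. Mouse numbers did not pair the samples (correlations of same-numbered mice from -0.126 to 0.0525). The replicate block called 5 members (1 higher, 4 lower), 1 other family gene lower, 1 granule Rab gene higher and 2 SNAREs of the ER, Golgi and endosomes higher. With the immediate early list as a covariate, edgeR called 0 members in either direction and 0 genes of every list, 0% of all genes (426 at an unadjusted p under 0.05), and log2 fold changes were 0.347 for Stxbp5l, 0.227 for Syt1 and 0.0184 for Syt14 (adjusted p = 0.999 each). In that covariate fit the level of the list and the diet cannot be told apart, and the cause of the other shifts was not tested. Cplx1, Sytl2, Syt16 and Doc2b averaged 1.12 to 4.68 CPM and varied widely between mice. Their SDs within a diet were 20.3% to 80.2% of the group mean, and the part of depth in this was not tested.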
